A study of Mus musculus with 24 samples.

Results

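The levels of 10 genes that hold inflammatory signalling and inflammatory transcripts in check were followed in SIM-A9, a microglial line from mouse, 2 h after exposure to LPS or to materials used to probe neurons. They were chosen by gene symbol out of the 54838 genes of the count table, with earlier results of these data known. The genes were Tnfaip3, Tnip1, Tnip3, Zc3h12a, Zc3h12c, Zfp36, Zfp36l1, Zfp36l2, Rc3h1 and Irak3. All 10 were found once each and passed the filter on low counts that left 13116 genes to test, with 94 to 8231 counts for any of them in any library.

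Tnfaip3 encodes A20, a ubiquitin-editing enzyme that restrains NF-kB activation downstream of Toll-like and TNF receptors, and Tnip1 and Tnip3 encode ABIN-1 and ABIN-3, ubiquitin-binding proteins that associate with A20. Irak3 encodes IRAK-M, a member of the IL-1 receptor-associated kinase family that lacks kinase activity and limits signalling from Toll-like and IL-1 receptors. The remaining genes act on mRNA: Zc3h12a (Regnase-1) is an endoribonuclease that cuts cytokine transcripts and Zc3h12c is its relative, Zfp36 (tristetraprolin) and its paralogs Zfp36l1 and Zfp36l2 bind AU-rich elements and recruit deadenylases, and Rc3h1 (roquin-1) binds stem-loops in many of the same transcripts. In macrophages and microglia several of these genes are themselves targets of the pathways they limit, which is why they are called feedback regulators.

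The study compared 8 groups of 3 libraries of poly-A RNA. The groups were untreated cells (control), LPS (bacterial lipopolysaccharide, the positive control for inflammation), adeno-associated virus (AAV), single-walled carbon nanotubes carrying (GT)6 DNA ((GT)6 SWCNT), carboxylated nanotubes (COOH SWCNT), the voltage dyes Di-2-ANEPEQ and DiBASC2, and the calcium dye Fura-2. Cells in all groups were first held for 2 h in 270 uL of medium without serum, and 30 uL of each agent at 10 times its final strength was then added, so the controls share the serum withdrawal. The labels give no final concentration, no AAV serotype and no payload, so sizes of response are not matched for dose. Every group is the same cell line, and the labels do not say that the 3 libraries of a group came from separate cultures, so p-values measure only the spread between these libraries. Library labels end in numbers that ran from 24 to 47 in blocks of 3 per group. The labels do not say what these numbers stand for, and their order and group cannot be told apart.

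Libraries held 17364272 to 29259221 counts, pairs of replicates correlated at 0.992 to 0.995 across genes, and every pair differed by more than sampling noise. The cell label was checked against 12 microglial markers, of which 11 passed the filter: Csf1r lay at 461 to 553 CPM and Cd68 at 724 to 989 CPM, whereas P2ry12 lay at 1.54 to 3.26 CPM, Tmem119 at 2.75 to 5.32 CPM and Sall1 had no count in 21 of 24 libraries. The sum of the 12 markers ranged from 2075 to 2303 CPM over all groups. Markers of neurons, astrocytes and fibroblasts did not pass the filter (0 of 4 in each list), the summed oligodendrocyte markers stayed between 3.51 and 5.80 CPM, and Syt1, Mog and Dcn had no count in any library.

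The upstream sequences of 4 of these genes are shown because they hold motifs of transcription factors that respond to LPS or to growth signals. They come from RefSeq on GRCm38.p6 and run 5′ to 3′ on the gene's strand over the 250 bases before an annotated start site, in lower case with the motif in capitals. In Tnfaip3, Tnip1 and Tnip3 the capitals mark matches to the NF-kB consensus decamer, and in Zfp36 they mark the CArG box, the site of serum response factor.
Tnfaip3 chr10:19015411-19015660, minus strand: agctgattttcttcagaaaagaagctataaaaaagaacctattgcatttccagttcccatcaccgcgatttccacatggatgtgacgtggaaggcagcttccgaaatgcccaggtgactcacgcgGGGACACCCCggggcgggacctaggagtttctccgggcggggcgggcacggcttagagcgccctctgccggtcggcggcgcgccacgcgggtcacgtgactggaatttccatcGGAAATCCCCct
Tnip1 chr11:54962941-54963190, minus strand: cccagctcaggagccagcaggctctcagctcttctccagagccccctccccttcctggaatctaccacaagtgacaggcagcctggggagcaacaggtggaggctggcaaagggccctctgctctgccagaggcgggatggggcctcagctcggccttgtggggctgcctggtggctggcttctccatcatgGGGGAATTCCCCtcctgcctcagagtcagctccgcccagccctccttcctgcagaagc
Tnip3 chr6:65590148-65590397, plus strand: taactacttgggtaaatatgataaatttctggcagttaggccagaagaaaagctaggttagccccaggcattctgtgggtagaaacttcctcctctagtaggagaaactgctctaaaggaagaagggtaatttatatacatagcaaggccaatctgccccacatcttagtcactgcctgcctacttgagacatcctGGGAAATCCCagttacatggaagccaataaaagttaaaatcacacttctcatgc
Zfp36 chr7:28379229-28379478, minus strand: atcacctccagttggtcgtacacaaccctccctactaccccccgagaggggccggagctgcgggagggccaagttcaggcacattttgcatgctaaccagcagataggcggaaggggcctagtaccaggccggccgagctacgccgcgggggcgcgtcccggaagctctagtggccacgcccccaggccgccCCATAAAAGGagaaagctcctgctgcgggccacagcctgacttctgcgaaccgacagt

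RefSeq windows were matched for 9 of the 10 genes, 12 windows in all, and Zfp36l2 had no entry. Both strands of 300 bases (250 before to 50 after the start) were searched for 4 motifs. The NF-kB consensus occurred in 3 of the 12 windows, 1 for each of 3 of the 9 genes, and not in the Tnfaip3 window that is not shown. In the Tnfaip3 window shown it began 125 and 12 bases before the start, and in Tnip3 54 bases before. In Tnip1 3 overlapping matches began 58, 57 and 56 bases before the start and together cover 12 bases. The starts used for Tnfaip3, Tnip3 and Zfp36 lie inside the longer GENCODE gene models, and so do the whole windows shown for Tnip3 and Zfp36. The background, called all windows below, was 32851 promoter windows of this length. It left out the windows of a chromosome that holds none of the 10 genes. Of the background 4.51% held the NF-kB consensus, against 5.2% of its windows of tested genes. The share was 8.67% for genes that were higher in LPS and 4.82% for genes that were lower.

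The CArG box occurred only in Zfp36 among these 12 windows, beginning 58 bases before the start, and in 1.63% of all windows. The AP-1 motif TGANTCA occurred in windows of Tnfaip3, Zfp36l1 and Rc3h1 and in 7.81% of all windows. The CRE motif TGACGTCA occurred in none of the 12 windows and in 1.79% of all. Windows of Zc3h12a, Zc3h12c and Irak3 held none of the 4 motifs. These are matches of letters in a fixed window and were not measured as binding sites.

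Most of the set was higher after LPS. Against control, 9 of the 10 genes passed the threshold (adjusted p under 0.05, Benjamini-Hochberg over all 13116 genes), compared with 28.3% of all genes tested. Of these, 8 were higher, where 13.8% of all genes were, and 1 was lower, where 14.5% were. The median log2 fold change of the 10 was 1.21, against −0.01 over all genes. In these bulk libraries fewer cells that express a gene and less of its RNA per cell cannot be told apart.

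Most of the set also passed in both nanotube groups, with smaller median changes than in LPS. In (GT)6 SWCNT 8 of 10 passed, against 20.4% of all genes, 7 of them higher (9.90% of all genes) and 1 lower (10.5%), with a median of 0.26 against −0.02 over all genes. In COOH SWCNT 9 of 10 passed, against 20.0% of all genes, 8 higher (9.39%) and 1 lower (10.6%), with a median of 0.28 against −0.00. Of the COOH SWCNT calls, 5 to 7 remained when any 1 library was left out: 5 without COOH SWCNT replicate 2. These comparisons share the 3 control libraries.

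Fewer of the genes passed in the dye groups and AAV. In DiBASC2 5 of 10 passed, against 5.47% of all genes, 4 of them lower (3.64% of all genes) and 1 higher (1.82%), with a median of −0.12 against −0.00. Without control replicate 1 the count was 3 of 10 and 333 of all genes rather than 717, and without DiBASC2 replicate 3 it was also 3 of 10. In AAV 1 passed, and it was higher, against 5.00% of all genes in either direction, 1.84% higher and 3.16% lower, with a median of 0.12 against −0.00. In Fura-2 0 of 10 passed edgeR's test, against 0.252% of all genes (0.0381% higher, 0.213% lower), with 2 at an unadjusted p under 0.05 and 0 by DESeq2. In Di-2-ANEPEQ 0 of 10 passed edgeR's test, against 3.08% of all genes (0.686% higher, 2.39% lower), with 3 at an unadjusted p under 0.05 and 0 by DESeq2.

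**Figure D1:**
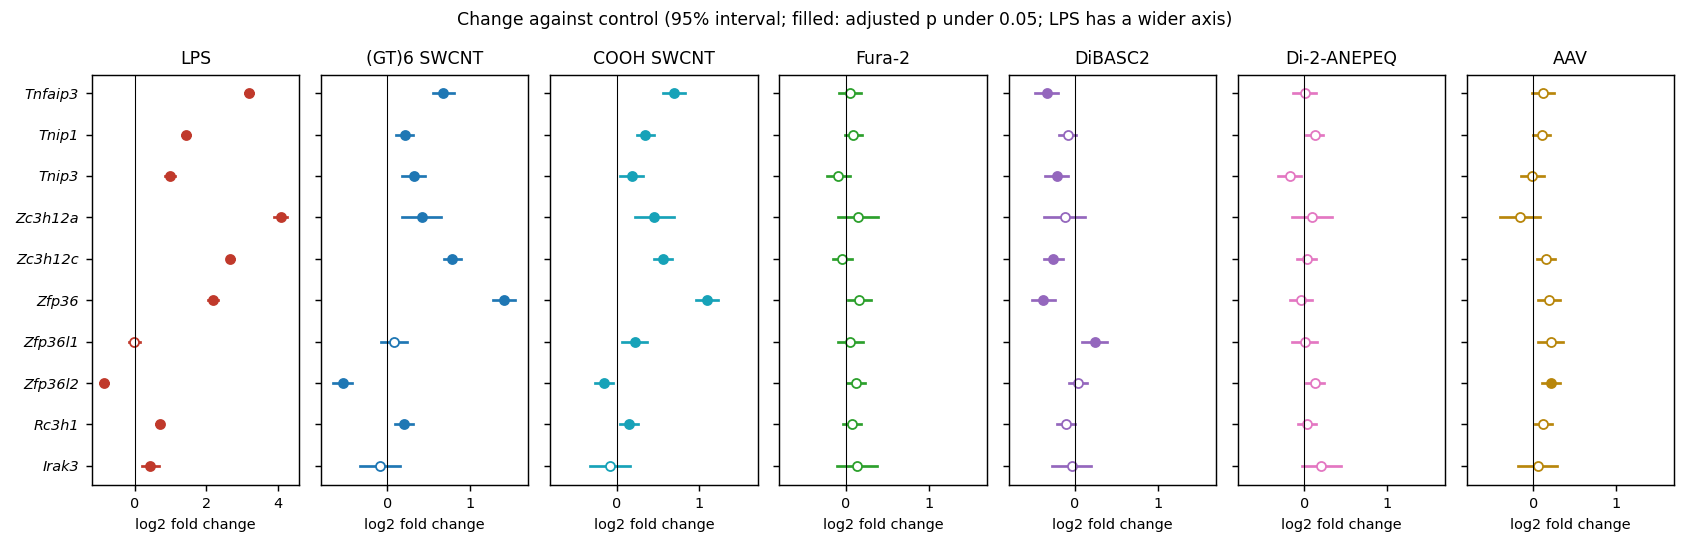
Log2 fold changes of the 10 genes against control in each of the 7 treatments, with 95% intervals from the fit as bars. Tnfaip3, Zc3h12a and Zc3h12c stand far higher in LPS than in any other treatment, Zfp36 reaches 1.40 in (GT)6 SWCNT and 1.09 with COOH SWCNT, and Zfp36l2 lies below 0 in LPS and both nanotube groups.

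The gene for A20 itself was among the most changed. Tnfaip3 (ENSMUSG00000019850, chromosome 10, 19000910 to 19015657 on GRCm38, minus strand) was measured at 23.7, 23.6 and 23.3 CPM in the 3 control libraries and at 219.6, 209 and 217 CPM in LPS. It was at 37.3, 37.8 and 37.7 CPM in (GT)6 SWCNT and at 39.98, 39.2 and 35.03 CPM with COOH SWCNT. The LPS libraries stood far above all others, and both nanotube groups lay above every control library and overlapped each other.

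Tnfaip3 rose 9.15-fold in LPS (log2 fold change 3.19 ± 0.06 SE, adjusted p = 1.92e-33). The rise was 0.68 ± 0.06 in (GT)6 SWCNT (adjusted p = 3.7e-11) and 0.69 ± 0.06 with COOH SWCNT (adjusted p = 4.29e-11). The nanotube types could not be told apart on this gene: their log2 difference was −0.02, with a 95% interval of −0.14 to 0.10 (adjusted p = 0.874). On the CPM scale the mean rise over control in either nanotube group was a small share of that in LPS, 7.34% in (GT)6 SWCNT and 7.57% with COOH SWCNT.

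The A20 transcript was below the untreated level in DiBASC2. Its libraries held 18.97, 19.2 and 17.6 CPM of Tnfaip3, all under the lowest control library. The log2 fold change was −0.34 ± 0.07 (adjusted p = 0.000852). Fura-2, with 23.5, 24.1 and 25.7 CPM, Di-2-ANEPEQ, with 24.2, 23.5 and 23.2 CPM, and AAV, with 23.6, 28.1 and 24.5 CPM, overlapped control and did not pass the test.

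Tnip1, whose product ABIN-1 links A20 to ubiquitin-bound complexes, was the most abundant of the 10 per unit length in untreated cells, at 37.9 RPKM, where Tnfaip3 stood at 3.26 RPKM. Tnip1 (ENSMUSG00000020400, chromosome 11, 54910785 to 54962917, minus strand) was at 131, 136 and 135 CPM in control and 338, 369 and 385 CPM in LPS. It was at 161, 155 and 149 CPM in (GT)6 SWCNT and 180.1, 168 and 163 CPM with COOH SWCNT. All libraries of LPS and of both nanotube groups exceeded all control libraries.

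The log2 fold change of Tnip1 was 1.44 ± 0.05 in LPS (adjusted p = 1.51e-24). It was 0.21 ± 0.05 in (GT)6 SWCNT (adjusted p = 0.00125) and 0.34 ± 0.05 with COOH SWCNT (adjusted p = 1.2e-06). Its difference between the nanotube types, −0.13 ± 0.05 for (GT)6 SWCNT against COOH SWCNT, passed at an adjusted p of 0.0406 but lost the call under 8 of 14 alternatives, with an adjusted p of up to 0.371. These were DESeq2 and its size factors, the replicate block, removal of length and GC trends, and leaving out replicate 1 or 2 of COOH SWCNT or replicate 2 or 3 of (GT)6 SWCNT. Against control Tnip1 did not pass in DiBASC2 (−0.09 ± 0.05, adjusted p = 0.351), Fura-2, Di-2-ANEPEQ or AAV, whose libraries held 123 to 155 CPM. The Fura-2, Di-2-ANEPEQ and AAV libraries all exceeded control, and DiBASC2 overlapped it. Separation from control, in either direction, was common among all genes tested: 16.2% in Fura-2, 24.3% in Di-2-ANEPEQ and 24.6% in AAV. Of the 10 genes, 4, 3 and 6 separated in the same order. The shares of all genes were 38.3% in LPS, 34.3% in (GT)6 SWCNT, 34.4% with COOH SWCNT, 22.6% in DiBASC2 and 35.5% between the nanotube types. There 9, 8, 8, 5 and 6 of the 10 separated. Separation without a call is therefore not taken as a change, here or for the genes below.

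Tnip3, the gene for ABIN-3 (ENSMUSG00000044162, chromosome 6, 65525313 to 65634040, plus strand), changed less. It was at 71.8, 65.5 and 61.998 CPM in control, 139, 133 and 122 CPM in LPS and 80.2, 81.1 and 87.005 CPM in (GT)6 SWCNT. It was at 73.3, 73.3 and 79.5 CPM with COOH SWCNT and 59.4, 57.3 and 54.3 CPM in DiBASC2. LPS and both nanotube groups lay above every control library and DiBASC2 below every one, and the gap was narrow for COOH SWCNT and DiBASC2. The log2 fold changes were 0.98 ± 0.06 in LPS (adjusted p = 1.01e-15) and 0.32 ± 0.06 in (GT)6 SWCNT (adjusted p = 0.000291). Smaller differences passed with COOH SWCNT (0.18 ± 0.06, adjusted p = 0.0392) and in DiBASC2 (−0.22 ± 0.07, adjusted p = 0.0404). Neither held throughout. The first lost its call with length and GC trends removed and when control replicate 2 or 3 or any COOH SWCNT library was left out (adjusted p up to 0.171). The second lost it with upper-quartile factors and without control replicate 1 or 2 or DiBASC2 replicate 2 or 3 (up to 0.312). The other treatments overlapped control and did not pass: AAV differed by −0.01 ± 0.06 (adjusted p = 0.938), Fura-2 by −0.09 ± 0.07 (adjusted p = 0.646) and Di-2-ANEPEQ by −0.17 ± 0.07 (adjusted p = 0.147). The last passed with no low-count filter and without Di-2-ANEPEQ replicate 1.

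**Figure D2:**
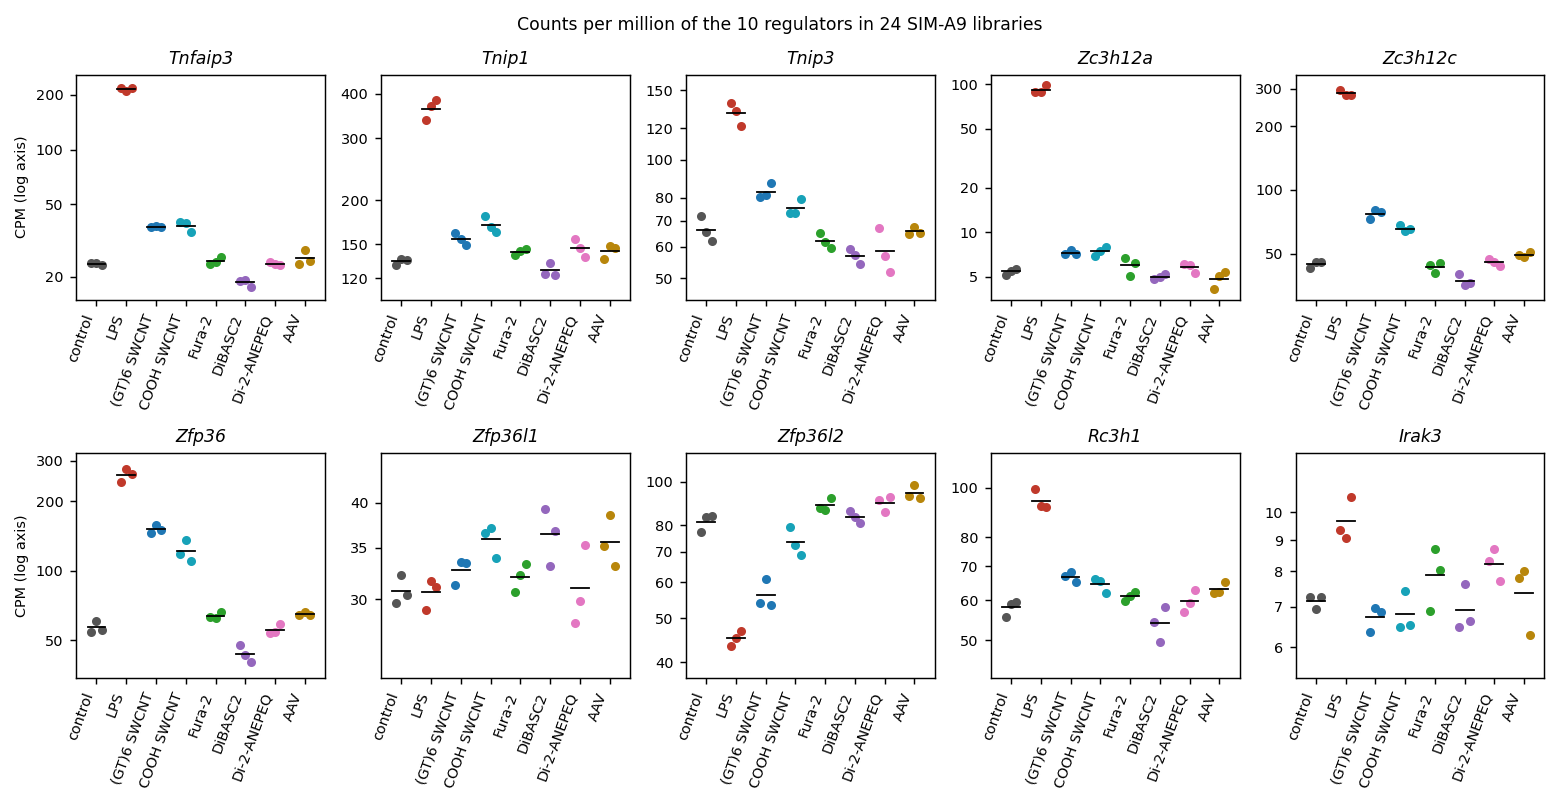
CPM of each of the 10 genes in every library on a log axis, by group, with the group mean as a line. LPS lies above all other groups for Tnfaip3, Tnip1, Tnip3, Zc3h12a, Zc3h12c, Zfp36, Rc3h1 and Irak3 and below all others for Zfp36l2, and Zfp36l1 overlaps between control and LPS.

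Zc3h12a, the gene for the cytokine-mRNA endonuclease Regnase-1, had the largest LPS response of the 10 genes. Zc3h12a (ENSMUSG00000042677, chromosome 4, 125118423 to 125127840, minus strand) was at 5.17, 5.45 and 5.66 CPM in control and 88.5, 89.2 and 98.6 CPM in LPS. It was at 7.06, 7.52 and 7.09 CPM in (GT)6 SWCNT and 6.90, 7.51 and 7.95 CPM with COOH SWCNT. The LPS libraries stood far above every other library, and the nanotube libraries lay a little above all control libraries.

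Zc3h12a rose 16.96-fold in LPS (4.08 ± 0.08 on the log2 scale, adjusted p = 6.01e-31), the 36th-highest log2 fold change among 13116 genes. In the nanotube groups it rose by 0.41 ± 0.11 in (GT)6 SWCNT (adjusted p = 0.00641) and 0.46 ± 0.11 with COOH SWCNT (adjusted p = 0.00255). On the CPM scale these mean rises were 2.08% and 2.34% of the LPS rise, the smallest such shares of the genes that rose in all 3 groups. In length-corrected units the transcript went from 1.88 RPKM in control to 31.95 RPKM in LPS. It did not pass in the dye groups or AAV, whose libraries held 4.12 to 6.65 CPM and overlapped control.

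Zc3h12c, which encodes a related CCCH zinc-finger protein, was higher in LPS and in both nanotube groups and lower in DiBASC2. Zc3h12c (ENSMUSG00000035164, chromosome 9, 52111344 to 52168572, minus strand) was at 42.9, 45.5 and 45.6 CPM in control and 297, 279 and 281 CPM in LPS. It was at 73.1, 79.96 and 78.3 CPM in (GT)6 SWCNT, 68.2, 63.9 and 65.1 CPM with COOH SWCNT and 40.1, 35.7 and 36.2 CPM in DiBASC2. LPS, (GT)6 SWCNT and COOH SWCNT formed separate levels in that order, all above control, and DiBASC2 lay below control without overlap.

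The log2 fold change of Zc3h12c was 2.68 ± 0.05 in LPS (adjusted p = 7.36e-33). It was 0.79 ± 0.05 in (GT)6 SWCNT (adjusted p = 3.72e-15), 0.56 ± 0.05 with COOH SWCNT (adjusted p = 1.33e-10) and −0.26 ± 0.05 in DiBASC2 (adjusted p = 0.0018). (GT)6 SWCNT exceeded COOH SWCNT by 0.23 ± 0.05 (adjusted p = 0.000616). AAV libraries, at 49.3, 48.4 and 50.9 CPM, all lay above control without passing (0.15 ± 0.05, adjusted p = 0.0875). Fura-2 (−0.04 ± 0.05, adjusted p = 0.84) and Di-2-ANEPEQ (0.03 ± 0.05, adjusted p = 0.829) overlapped control. Whether the responses of Zc3h12a and Zc3h12c differ was not tested.

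Zfp36, the gene for tristetraprolin, had the largest rise of the 10 in both nanotube groups. Zfp36 (ENSMUSG00000044786, chromosome 7, 28376784 to 28380253, minus strand) was at 54.5, 60.7 and 55.6 CPM in control and 243, 274 and 263 CPM in LPS. It was at 145, 157 and 151 CPM in (GT)6 SWCNT and 119, 136 and 110.1 CPM with COOH SWCNT. The groups formed separate steps, LPS above (GT)6 SWCNT above COOH SWCNT above control, with no overlap between neighbours.

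Zfp36 rose 4.56-fold in LPS (2.19 ± 0.06 on the log2 scale, adjusted p = 4.64e-27). It rose 2.65-fold in (GT)6 SWCNT (1.40 ± 0.06, adjusted p = 3.06e-20) and 2.13-fold with COOH SWCNT (1.09 ± 0.06, adjusted p = 3.8e-16). Among 13116 genes its signed change ranked 128 in LPS, 122 in (GT)6 SWCNT and 184 with COOH SWCNT, counted from the highest. The mean CPM rise was 46.3% of the LPS rise in (GT)6 SWCNT and 31.8% with COOH SWCNT.

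Direct comparisons gave the same order of steps. (GT)6 SWCNT differed from LPS by −0.79 ± 0.06 (adjusted p = 2.68e-14), COOH SWCNT differed from LPS by −1.10 ± 0.06 (adjusted p = 1.34e-18), and (GT)6 SWCNT was above COOH SWCNT by 0.32 ± 0.06 (adjusted p = 8.45e-05). DiBASC2 held 47.8, 43.01 and 40.5 CPM, all below control (−0.38 ± 0.07, adjusted p = 0.000197). AAV held 64.4, 66.01 and 64.3 CPM, all above control, with 0.19 ± 0.06 at an adjusted p of 0.0747, and passed the threshold under 4 of 14 alternatives (no low-count filter, length and GC trends removed, only the 2 groups compared, and DESeq2). Fura-2 held 63.1, 62.3 and 66.2 CPM, also all above control, and did not pass (0.16 ± 0.06, adjusted p = 0.309). Di-2-ANEPEQ held 53.999, 54.1 and 58.7 CPM and overlapped control.

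Zfp36l2, a paralog of tristetraprolin that also binds AU-rich elements, moved the other way. Zfp36l2 (ENSMUSG00000045817, chromosome 17, 84183931 to 84187947, minus strand) was at 77.5, 83.4 and 83.9 CPM in control and 43.4, 45.3 and 46.8 CPM in LPS. It was at 54.1, 61.1 and 53.4 CPM in (GT)6 SWCNT and 79.3, 72.5 and 68.7 CPM with COOH SWCNT. LPS was lowest, (GT)6 SWCNT next, both clear of every control library, whereas COOH SWCNT overlapped control.

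Zfp36l2 fell to 0.554 of control in LPS (−0.85 ± 0.06 on the log2 scale, adjusted p = 1.45e-15) and changed by −0.54 ± 0.05 in (GT)6 SWCNT (adjusted p = 4.03e-10). The fall in mean CPM in (GT)6 SWCNT was 69.7% of that in LPS, the largest such share among the genes that changed in both. In COOH SWCNT the change was −0.15 ± 0.05 (adjusted p = 0.0367), and this call was lost without control replicate 2 or 3 or COOH SWCNT replicate 2 or 3 (adjusted p up to 0.31). (GT)6 SWCNT differed from COOH SWCNT by −0.39 ± 0.05 (adjusted p = 1.31e-06).

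Zfp36l2 was also the 1 gene of the set to pass in AAV. The AAV libraries held 92.8, 98.03 and 92.2 CPM, all above the highest control library. The log2 fold change was 0.21 ± 0.05 (adjusted p = 0.0124). The call was lost without AAV replicate 2 or without control replicate 1, with an adjusted p of up to 0.0821. Libraries of Di-2-ANEPEQ and Fura-2 (85.5 to 92.6 CPM) also lay above all control libraries without passing, at adjusted p = 0.149 and 0.37 respectively, and Di-2-ANEPEQ overlapped both AAV and Fura-2. DiBASC2, at 86.2, 83.4 and 80.9 CPM, overlapped control (0.03 ± 0.05, adjusted p = 0.792).

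Zfp36l1, the third paralog (ENSMUSG00000021127, chromosome 12, 80107754 to 80113013, minus strand), showed no detectable LPS response. It was at 29.7, 32.3 and 30.4 CPM in control and 29.1, 31.7 and 31.1 CPM in LPS, groups that overlapped. Libraries of all 8 groups fell within 27.97 to 39.3 CPM, and each group overlapped its neighbour in order, but DiBASC2 (39.3, 33.2 and 36.8 CPM), COOH SWCNT (36.6, 37.1 and 33.9 CPM) and AAV (35.2, 38.5 and 33.1 CPM) lay wholly above control. The log2 fold change in LPS was −0.01 ± 0.08 with a 95% interval of −0.17 to 0.15 (adjusted p = 0.953), and in (GT)6 SWCNT it was 0.09 ± 0.07 with an interval of −0.07 to 0.24 (adjusted p = 0.48). Increases of 0.22 ± 0.07 with COOH SWCNT (adjusted p = 0.0306) and 0.24 ± 0.07 in DiBASC2 (adjusted p = 0.0427) passed. The first was lost without control replicate 1 or 3 or COOH SWCNT replicate 1 or 2 (adjusted p up to 0.105). The second was lost with length and GC trends removed and without control replicate 1 or 3 or DiBASC2 replicate 1 or 3 (up to 0.235). In AAV the change was 0.21 ± 0.07 (adjusted p = 0.0796), and it passed under the same 4 of 14 alternatives as Zfp36 did there. Fura-2 (0.06 ± 0.07, adjusted p = 0.842) and Di-2-ANEPEQ (0.00 ± 0.07, adjusted p = 0.988) overlapped control.

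The shift in balance within the tristetraprolin family was followed as the log2 ratio of Zfp36 to Zfp36l2 CPM in each library, a pair chosen after the values were seen and therefore given without a test. The ratio ranged over −0.59 to −0.46 in control, so Zfp36l2 had more CPM than Zfp36 in every control library. It ranged over 0.58 to 0.91 with COOH SWCNT, 1.36 to 1.49 in (GT)6 SWCNT and 2.49 to 2.60 in LPS. Zfp36 thus had more CPM than Zfp36l2 in each library of these 3 groups, in separate steps. In DiBASC2 the ratio was −0.93 ± 0.08 (mean and SD), below every control library. Di-2-ANEPEQ, at −0.75 to −0.66, also lay below every control library. The union exon lengths of the genes are 3470 and 3530 bases. That of Zfp36 spans its whole gene model, so it can exceed the length of the transcript, and the ratio is not a ratio of transcript numbers.

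The ratio of Zfp36 to Tnfaip3, also chosen after the values were seen, separated LPS from the nanotubes in direction. It ranged over 1.20 to 1.36 in control, 0.15 to 0.39 in LPS, 1.96 to 2.05 in (GT)6 SWCNT and 1.57 to 1.79 with COOH SWCNT. LPS libraries lay below the control range and nanotube libraries above it. Fura-2 libraries, at 1.37 to 1.43, also lay just above the control range. The ratio of Zc3h12a to Zc3h12c went from −3.06 to −3.01 in control to −1.75 to −1.51 in LPS, and was −3.47 to −3.37 in (GT)6 SWCNT, below control. It was −3.30 to −3.03 with COOH SWCNT, overlapping control, and −3.58 to −3.23 in AAV, also below control.

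**Figure D3:**
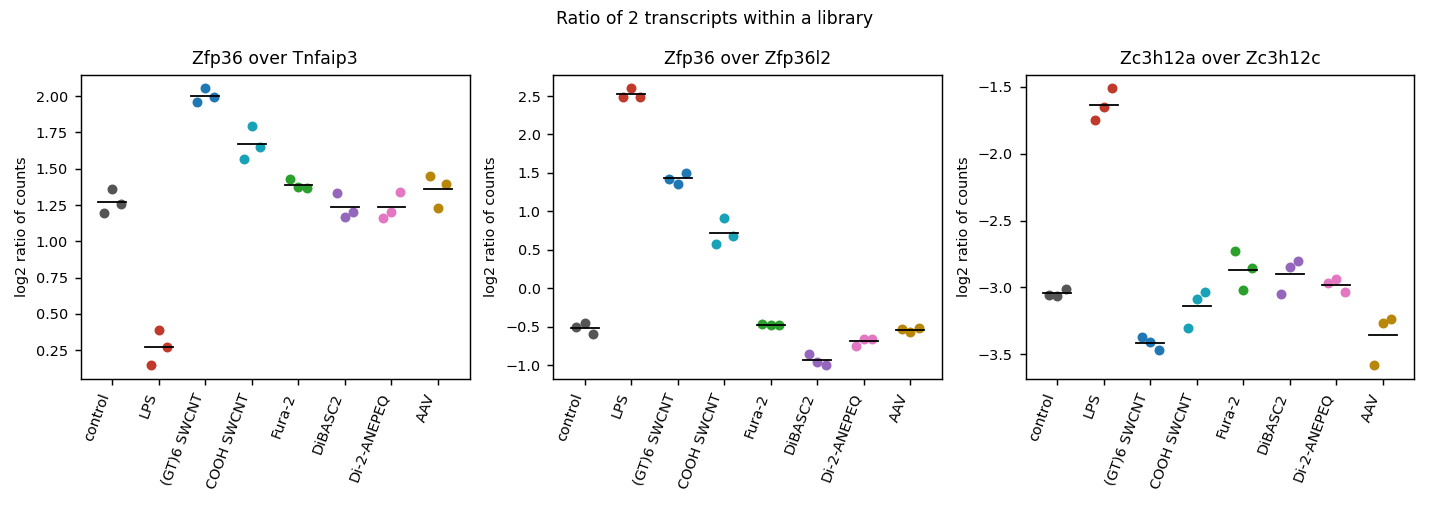
Log2 ratio of CPM of 3 pairs of genes in every library, by group. The ratio of Zfp36 to Zfp36l2 rises in steps from control through COOH SWCNT and (GT)6 SWCNT to LPS. The ratio of Zfp36 to Tnfaip3 is lower than control in LPS, higher in both nanotube groups and slightly higher in Fura-2.

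Rc3h1, whose product roquin-1 marks stem-loop transcripts for deadenylation (ENSMUSG00000040423, chromosome 1, 160906418 to 160974978, plus strand), rose modestly. It was at 55.7, 59.02 and 59.6 CPM in control, 99.4, 92.1 and 91.8 CPM in LPS, 66.9, 68.2 and 65.3 CPM in (GT)6 SWCNT and 66.2, 65.4 and 62.1 CPM with COOH SWCNT. All libraries of these treatments exceeded all control libraries, and the nanotube groups overlapped each other. The log2 fold changes were 0.70 ± 0.05 in LPS (adjusted p = 2.94e-14), 0.20 ± 0.05 in (GT)6 SWCNT (adjusted p = 0.00342) and 0.15 ± 0.05 with COOH SWCNT (adjusted p = 0.0322). The COOH SWCNT call was lost without control replicate 1 or COOH SWCNT replicate 1 or 2 and with length and GC trends removed (adjusted p up to 0.118). Rc3h1 did not pass in the dye groups or AAV, whose libraries held 49.6 to 65.4 CPM, with those of AAV and Fura-2 all above control.

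Irak3, the gene for the inhibitory kinase-family member IRAK-M (ENSMUSG00000020227, chromosome 10, 120141648 to 120202130, minus strand), was among the least abundant of the set. It was at 7.25, 6.94 and 7.26 CPM in control and 9.35, 9.08 and 10.6 CPM in LPS, with no overlap. It rose by 0.44 ± 0.11 in LPS (adjusted p = 0.00191). The nanotubes did not move it past the threshold, with −0.09 ± 0.12 in (GT)6 SWCNT (95% interval −0.33 to 0.16, adjusted p = 0.666) and −0.07 ± 0.11 with COOH SWCNT (95% interval −0.32 to 0.17, adjusted p = 0.714). The dye and AAV libraries held 6.29 to 8.70 CPM and did not pass, and from Di-2-ANEPEQ down to (GT)6 SWCNT each group overlapped the next, but the Di-2-ANEPEQ libraries (8.31, 8.70 and 7.71 CPM) all exceeded control (0.21 ± 0.11, adjusted p = 0.344). Irak3 shares exon sequence with Tmbim4 on the opposite strand, whose own log2 fold change in LPS was 0.04 (adjusted p = 0.809). The use of strand in counting is not given in the sources used here, so reads from the overlap cannot be told apart. Antisense or small RNA partners of Zc3h12c, Zfp36, Zfp36l1 and Zfp36l2 held at most 19 counts in any library.

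Per unit length the order of the set differed between control and LPS. Length is that of the union of annotated exons, which for Zfp36 spans the whole gene model and can understate its RPKM. In control the highest were Tnip1 at 37.9 RPKM, Zfp36l2 at 23.1 RPKM and Zfp36 at 16.4 RPKM. Zfp36l1 at 10.3, Zc3h12c at 6.53, Tnip3 at 6.08, Rc3h1 at 5.14, Tnfaip3 at 3.26, Irak3 at 1.95 and Zc3h12a at 1.88 RPKM followed. In LPS the order began with Tnip1 at 103 RPKM, Zfp36 at 75.002 RPKM, Zc3h12c at 41.7 RPKM, Zc3h12a at 31.95 RPKM and Tnfaip3 at 29.8 RPKM. Zc3h12a, close to Irak3 in control, thus stood just above Tnfaip3 in LPS.

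Set against LPS directly, (GT)6 SWCNT differed in 9 of 10 genes, where 21.6% of all genes did. Of these 8 were lower than in LPS (11.9% of all genes) and Zfp36l2 was higher (9.63%), with a median of −0.73 over the 10. COOH SWCNT differed from LPS in all 10, where 37.8% of all genes did, with 8 lower (19.7%) and Zfp36l2 and Zfp36l1 higher (18.1%), and a median of −0.95. The gap was widest for Zc3h12a, at −3.67 ± 0.08 in (GT)6 SWCNT and −3.63 ± 0.08 with COOH SWCNT. It was −2.52 ± 0.05 and −2.50 ± 0.05 for Tnfaip3. The Zfp36l1 difference between COOH SWCNT and LPS, 0.23 ± 0.07 (adjusted p = 0.0129), was lost without COOH SWCNT replicate 1 or 2 or LPS replicate 1 (adjusted p up to 0.0669).

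Between the nanotube types 4 of 10 genes passed, against 21.4% of all genes, a count that was 3 where Tnip1 lost its call and 5 with only the 2 groups compared, where Tnip3 passed (adjusted p = 0.0389). Zfp36 and Zc3h12c were higher in (GT)6 SWCNT (11.9% of all genes were) and Zfp36l2 and Tnip1 were lower (9.48%), with the values given above. The median over the 10 was −0.01, the same as over all genes. Intervals for Tnfaip3, Zc3h12a (−0.26 to 0.18), Rc3h1 (−0.06 to 0.16) and Irak3 (−0.25 to 0.23) included 0. So did those for Tnip3 (−0.00 to 0.27) and Zfp36l1 (−0.28 to 0.02), although the libraries of the 2 groups did not overlap for either. For Tnip3 the interval only just reached 0, and edgeR's test gave an unadjusted p of 0.0429 (adjusted p = 0.136).

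Between the voltage dyes, 5 of 10 genes passed, against 8.95% of all genes, 4 of them lower in DiBASC2 (5.48%) and 1 higher (3.47%), with a median of −0.22 against 0.00 over all genes. Tnfaip3 differed by −0.34 ± 0.06 (adjusted p = 0.000325), Zfp36 by −0.34 ± 0.06 (adjusted p = 0.000427) and Zc3h12c by −0.29 ± 0.05 (adjusted p = 0.00024). These 3 genes were also the ones whose DiBASC2 libraries all lay below control with a call that held under every alternative. Tnip1 (−0.21 ± 0.05, adjusted p = 0.00316) lost its call without Di-2-ANEPEQ replicate 1 (adjusted p 0.0649), and Zfp36l1 (0.23 ± 0.07, adjusted p = 0.0295) lost it with length and GC trends removed and without Di-2-ANEPEQ replicate 1 or 2 or DiBASC2 replicate 1 or 3 (up to 0.218). Without Di-2-ANEPEQ replicate 1 the count was 3 of 10.

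The split of all called genes into higher and lower, which the shares above rest on, moved with scaling in some comparisons. With upper-quartile factors it was 1455 higher and 2660 lower in LPS (1809 and 1908 as reported), 361 and 296 in DiBASC2 (239 and 478) and 179 and 502 in AAV (241 and 415). With length and GC trends removed it was 945 and 1772 with COOH SWCNT (1232 and 1395), 245 and 1013 in DiBASC2 and 406 and 385 in AAV, and DESeq2 gave 422 and 456 in AAV. Upper-quartile factors gave 1695 and 1251 for (GT)6 SWCNT against LPS (1263 and 1566), 3307 and 1980 for COOH SWCNT against LPS (2374 and 2580), 1283 and 1604 for (GT)6 SWCNT against COOH SWCNT (1557 and 1244) and 746 and 431 for DiBASC2 against Di-2-ANEPEQ (455 and 719). With length and GC trends removed the last 2 were 1855 and 775, and 390 and 1427. No called change of the 10 genes reversed under any of them.

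Related lists, also chosen with earlier results of these data known, are given beside the shares and medians of all genes stated above. Of all genes 28.3% were called in LPS, 20.4% in (GT)6 SWCNT, 20.0% with COOH SWCNT and 5.47% in DiBASC2. The shares were 5.00% in AAV, 3.08% in Di-2-ANEPEQ and 0.252% in Fura-2. A list count near these shares is not taken as a response of the list. The first list, named ubiquitin regulators here, held 17 genes, all tested. In LPS 6 were higher and 1 lower, with a median log2 fold change of 0.02 against −0.01 over all genes. Birc3, the gene for the ubiquitin ligase cIAP2, went from 71.8 ± 2.25 to 179 ± 4.33 CPM (mean ± SD, n = 3 each; log2 1.32 ± 0.04, adjusted p = 8.02e-25), and Birc2, for cIAP1, rose by 0.97 ± 0.09 (adjusted p = 2.82e-11). Tnfaip8l2 (TIPE2, a negative regulator of innate immunity) is in the list but does not encode a ubiquitin enzyme. It was the 1 lower gene, falling from 28.2 ± 1.80 to 15.5 ± 1.23 CPM (−0.86 ± 0.07, adjusted p = 3.3e-12).

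The same list counted 2 higher and 4 lower in (GT)6 SWCNT, where Tnfaip8l2 changed by −0.70 ± 0.07 (adjusted p = 6.17e-10) and Birc3 by 0.22 ± 0.04 (adjusted p = 0.000206). Rnf31, for a subunit of the linear ubiquitin ligase, passed there at 0.048 and lost the call under 12 of 14 alternatives, and the list's 6 calls fell to 3 without control replicate 2 or (GT)6 SWCNT replicate 2. In COOH SWCNT 1 was higher (Birc3, 0.32 ± 0.04, adjusted p = 7.94e-07) and 3 lower, among them Tnfaip8l2 (−0.29 ± 0.07, adjusted p = 0.00174) and Otulin (−0.17 ± 0.04, adjusted p = 0.00308), a deubiquitinase of linear chains. That count, 4 of 17, was near the 20.0% of all genes. In DiBASC2 Tnfaip8l2 was higher (0.27 ± 0.06, adjusted p = 0.00736) and Rnf11 and Birc3 lower (−0.26 ± 0.07 and −0.15 ± 0.04, adjusted p = 0.0188 and 0.0387). All 3 DiBASC2 calls were lost without control replicate 1, and 1 call was made without control replicate 2 or DiBASC2 replicate 3. By edgeR the list had 0 calls in AAV, Fura-2 and Di-2-ANEPEQ, with 3, 1 and 1 genes at an unadjusted p under 0.05. Here and for each list and treatment below with 0 calls against control, DESeq2 also made 0. With length and GC trends removed 1 gene of the ubiquitin list passed in AAV.

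Of 14 IRAKs and adaptors around IRAK-M, 13 were tested (Peli2 was not), and 6 were higher and 1 lower in LPS, with a median of 0.12. Irak2, which carries the Toll-like receptor signal downstream, rose from 56.7 ± 0.284 to 146 ± 2.63 CPM (1.36 ± 0.04, adjusted p = 2.11e-25), and Peli1, a ubiquitin ligase of this complex, by 1.10 ± 0.05 (adjusted p = 4.1e-20). Tab1, an adaptor of the kinase TAK1, fell (−0.46 ± 0.06, adjusted p = 8.63e-08). Irak2 also rose in (GT)6 SWCNT (0.68 ± 0.04, adjusted p = 2.77e-15) and COOH SWCNT (0.46 ± 0.04, adjusted p = 2.63e-10) and fell in DiBASC2 (−0.22 ± 0.05, adjusted p = 0.00145).

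Tollip, an inhibitor of IL-1 receptor signalling, followed with 0.32 ± 0.04 in (GT)6 SWCNT (adjusted p = 1.54e-07), 0.16 ± 0.04 with COOH SWCNT (adjusted p = 0.00502) and −0.18 ± 0.04 in DiBASC2 (adjusted p = 0.00654), the last lost without control replicate 1. The list counted 3 higher and 2 lower in (GT)6 SWCNT, falling to 2 calls without control replicate 2 and 3 without (GT)6 SWCNT replicate 1, and 2 higher and 0 lower with COOH SWCNT. The COOH SWCNT count, 2 of 13, was below the 20.0% of all genes. It counted 0 higher and 2 lower in DiBASC2 and 1 higher in AAV. That gene, Tab3 (0.23 ± 0.07, adjusted p = 0.0428), lost its call with upper-quartile factors and on leaving out AAV replicate 2, AAV replicate 3, control replicate 1 or control replicate 3. The list had 0 calls by edgeR in Fura-2 and Di-2-ANEPEQ, with 0 and 1 at an unadjusted p under 0.05.

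Of 19 genes of the deadenylation and decapping machinery that tristetraprolin and roquin recruit, all tested, 5 were higher and 1 lower in LPS, with a median of −0.00. The largest were Dcp1a, of the decapping complex (0.24 ± 0.06, adjusted p = 0.00219), Pan3, of a deadenylase (0.23 ± 0.05, adjusted p = 0.00103), and the helicase Ddx6 (−0.20 ± 0.05, adjusted p = 0.000668). There were 2 higher and 1 lower in (GT)6 SWCNT and 2 higher with COOH SWCNT, with Dcp1a called in both (0.18 and 0.21), but 0 calls remained without control replicate 3 in the first and without COOH SWCNT replicate 1 in the second. The first also fell to 1 with no low-count filter and without control replicate 1 or 2 or (GT)6 SWCNT replicate 2. As reported, 6 of 19 in LPS, 3 of 19 in (GT)6 SWCNT and 2 of 19 with COOH SWCNT were called. These counts were near or below the shares of all genes, 28.3%, 20.4% and 20.0%. The COOH SWCNT count fell to 1 without control replicate 1 and stood at 4 with a mean of at least 50 counts. In AAV, Fura-2, DiBASC2 and Di-2-ANEPEQ 0 passed edgeR's test, with 4, 2, 1 and 4 at an unadjusted p under 0.05. In DiBASC2 1 passed with upper-quartile factors and without DiBASC2 replicate 2.

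Of 13 other regulators of the same transcripts, 10 were tested (Zc3h12b, Zc3h12d and Zfp36l3 were not), and 5 were higher and 1 lower in LPS. The counts were 4 higher and 2 lower in (GT)6 SWCNT, and with COOH SWCNT 5 higher and 1 lower. Malt1, a protease known to cleave Regnase-1 and roquin, rose from 53.3 ± 1.68 to 139 ± 5.21 CPM in LPS (1.38 ± 0.05, adjusted p = 7.85e-23). It also rose in (GT)6 SWCNT (0.72 ± 0.05, adjusted p = 1.26e-13) and with COOH SWCNT (0.37 ± 0.05, adjusted p = 2.59e-06). Arid5a, which protects transcripts that Regnase-1 cuts, rose by 0.67 ± 0.05, 0.52 ± 0.05 and 0.34 ± 0.05 in the same order (adjusted p = 3.95e-13, 6.17e-10 and 7.12e-06).

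Mapkapk2, the kinase MK2 that phosphorylates tristetraprolin, rose in LPS (0.53 ± 0.03, adjusted p = 2.45e-15), in (GT)6 SWCNT (0.21 ± 0.03, adjusted p = 1.44e-05) and with COOH SWCNT (0.20 ± 0.03, adjusted p = 4.65e-05). Mapk14, for the p38 kinase upstream of it, fell in (GT)6 SWCNT (−0.32 ± 0.04, adjusted p = 1.69e-07). The list had 0 calls by edgeR in AAV, Fura-2, DiBASC2 and Di-2-ANEPEQ, with 1, 0, 4 and 1 at an unadjusted p under 0.05. With length and GC trends removed there were 3 in DiBASC2 and 1 in AAV.

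Of 20 listed transcripts known as targets of these decay factors 18 were tested (Cxcl1 and Cxcl3 were not), and 16 were higher and 1 lower in LPS, with a median of 2.81. Nfkbiz, for an atypical IkB protein, rose from 15.9 ± 1.27 to 844 ± 7.73 CPM (5.72 ± 0.05, adjusted p = 3.95e-42) and the chemokine gene Cxcl2 from 12.99 ± 1.97 to 1175 ± 83.1 CPM (6.51 ± 0.08, adjusted p = 3.68e-38). Il6 reached 39.99 ± 2.84 CPM, against at most 4 counts in any control library, too few for a stable ratio. The immediate-early gene Fos, named here after its value was seen, was the 1 lower target (−0.62 ± 0.10, adjusted p = 8.44e-06).

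In (GT)6 SWCNT 12 targets were higher and 0 lower (median 1.31), led by Cxcl2 (2.81 ± 0.08, adjusted p = 1.26e-24), Il1b (2.38 ± 0.08, adjusted p = 8.12e-23) and Ccl3 (1.74 ± 0.07, adjusted p = 7.61e-22). In COOH SWCNT 12 were higher and 0 lower (median 0.52), led by Il1b (1.52 ± 0.09, adjusted p = 1.2e-15), Cxcl2 (1.48 ± 0.09, adjusted p = 3.32e-15) and the phosphatase gene Dusp1 (1.20 ± 0.10, adjusted p = 3.62e-12). These cytokine transcripts rose together with Zfp36 and Zc3h12c, and transcript levels do not show whether their decay changed.

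In DiBASC2 11 targets were lower and 0 higher (median −0.35), and Tnfaip3, Zfp36 and Zc3h12c were lower in the same libraries. Cxcl2 fell from 12.99 ± 1.97 to 4.18 ± 0.663 CPM (−1.62 ± 0.13, adjusted p = 1.73e-10), Ccl2 changed by −0.72 ± 0.07 (adjusted p = 2.87e-09) and Ptgs2, for cyclooxygenase-2, by −0.69 ± 0.06 (adjusted p = 1.1e-09). In Di-2-ANEPEQ 3 were lower: Cxcl2 (−0.40 ± 0.11, adjusted p = 0.0335), Ccl2 (−0.33 ± 0.07, adjusted p = 0.00324) and Nfkbiz (−0.24 ± 0.07, adjusted p = 0.0391). A single target was called on omitting any of Di-2-ANEPEQ replicates 2 and 3 and control replicates 1 and 3. In AAV 1 was higher, Ccl3 (0.23 ± 0.07, adjusted p = 0.0379), lost by DESeq2 and on omitting any of AAV replicates 2 and 3 and control replicates 2 and 3, and in Fura-2 0 of 18 passed edgeR's test, also 0 at an unadjusted p under 0.05.

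**Figure D4:**
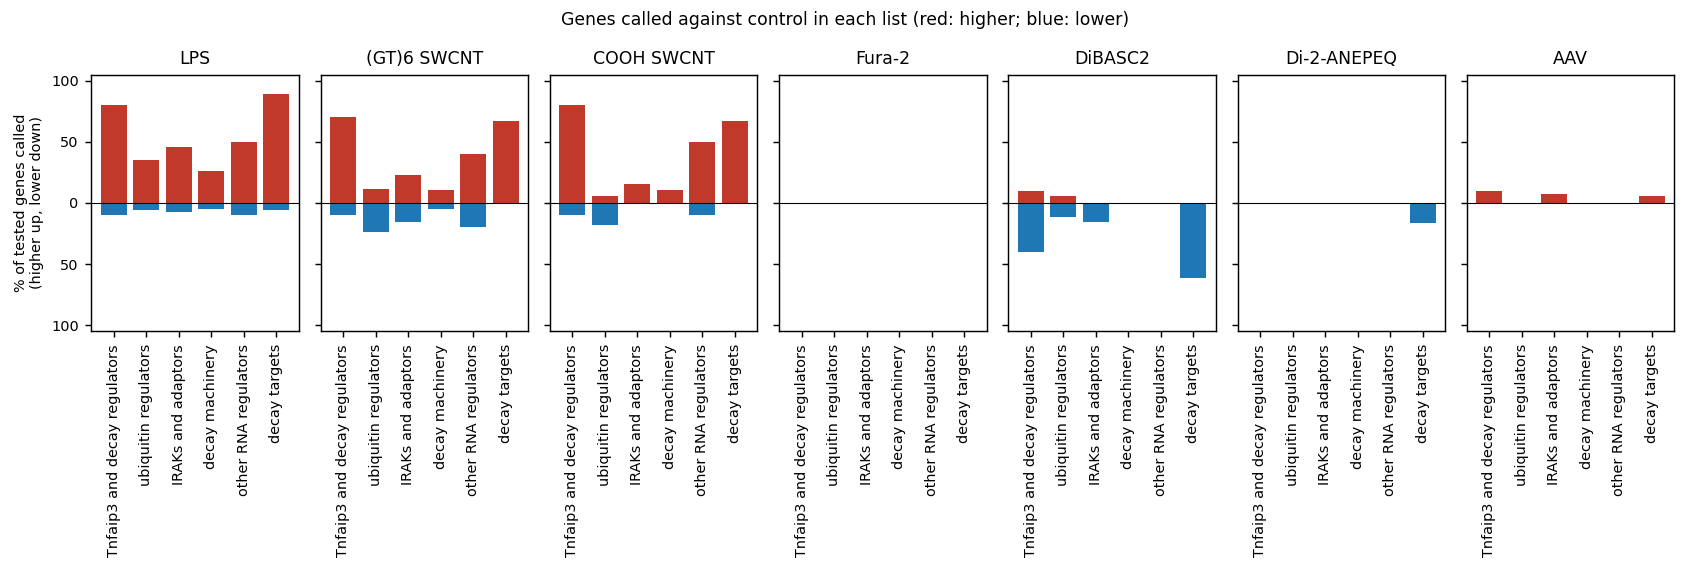
Percent of tested genes called higher (upward bars) or lower (downward bars) against control in the 10 genes and in 5 related lists, for each treatment. The decay targets and the 10 regulators have the tallest upward bars in LPS and both nanotube groups and the longest downward bars in DiBASC2, and Fura-2 has no bar.

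The genes most like each member in pattern were taken as those whose 7 log2 fold changes against control differed least from its own by root mean square, among 9492 genes of at least 5 CPM on average. All 7 share the control libraries, so this is a description. Zfp36 was nearest to Csrnp1 (0.0772), Kdm6b (0.0911) and Btg2 (0.146), genes that also rose in LPS by 2.01 to 2.20 and in (GT)6 SWCNT by 1.41 to 1.61. Tnfaip3 was nearest to Tnfsf9 (0.177), Acod1 (0.196) and the member Zc3h12c (0.212). Zc3h12c was nearest to Nfkbia (0.147), the gene for the NF-kB inhibitor IkB-alpha, then to Rab11fip1 (0.154) and Tnfsf9 (0.156).

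Zc3h12a had no close match: its nearest genes were Socs3 (0.245), Acod1 (0.338) and Tnfaip3 (0.389). Tnip1 was nearest to Birc3 (0.0614), Tarm1 (0.0685) and Plekhh3 (0.0897), and Tnip3 to Gch1 (0.0804), Samsn1 (0.0848) and Snx20 (0.0849). Zfp36l2 was nearest to Nfatc2 (0.0676), Dcaf5 (0.0782) and Tmem104 (0.0783), which all fell in LPS by 0.80 to 0.96 on the log2 scale. Rc3h1 was nearest to Rrs1, Rictor and Vps37c (0.0460 to 0.0556), Irak3 to Rhoq, Bicd2 and Dgat2 (0.0859 to 0.0939) and Zfp36l1 to Rnf157, Rmi2 and Stambp (0.0582 to 0.0605). Genes that change little are near many others on this measure.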

How the data were processed

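The authors deposited 1 table of raw read counts per gene and library, with versioned Ensembl identifiers. STAR 2.5.4b and GRCm38.p6 are named in the submitters' processing notes, and the counting tool, annotation and strand setting are not given in the sources used here. Names came from GENCODE M21 (GRCm38): 54809 of 54838 identifiers matched, 53947 of them with their version. Sample titles gave the group and the replicate number. The dye labels vary in spelling: Di-2-ANEPEQ follows the sample descriptions and count columns, and DiBASC2 the titles.

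Genes were filtered with filterByExpr, scaled by TMM and tested with edgeR 4.0.16 (R 4.3.3) quasi-likelihood F-tests on 8 group means over 24 libraries (16 residual degrees of freedom), with 11 contrasts and Benjamini-Hochberg adjustment over 13116 genes in each. The p-values are not adjusted across contrasts. CPM use TMM library sizes, RPKM divide these by union exon length, SE is the log2 fold change over the root of F, and 95% intervals use the residual degrees of freedom. The common biological coefficient of variation was 4.12%. Alternatives were DESeq2 1.42.0, other scaling, no or a stricter filter, length and GC trends removed, 2 groups only, a replicate block, and each library left out. The procedure was tested on simulated counts. Members and related lists were chosen with earlier results of these data known. All 10 members were fitted in every comparison, and the text names up to 3 called genes of largest change (mean of at least 5 CPM) per related list and the 3 nearest genes per member.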

Additional observations from a re-analysis of the deposited data

How the results depend on the processing

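Over 110 values (10 genes by 11 comparisons), 60 passed the threshold, 49 of these under every one of 14 alternatives, and 11 lost it under at least 1. A further 6 passed only under some alternative, and no called value reversed. Counts of the 10 genes that passed moved by more than 1.5 times in Di-2-ANEPEQ, AAV, COOH SWCNT, DiBASC2 and DiBASC2 against Di-2-ANEPEQ, and in none of the other 6 comparisons. In Di-2-ANEPEQ 1 gene passed with no low-count filter (0 as reported), and 0 to 1 with a library left out, the 1 without Di-2-ANEPEQ replicate 1. In AAV 3 passed with no low-count filter, with length and GC trends removed, with only the 2 groups compared and by DESeq2 (1 as reported), and 0 to 1 with a library left out, 0 without AAV replicate 2 or control replicate 1. With a library left out, 5 to 7 passed in COOH SWCNT (9 as reported), 3 to 4 in DiBASC2 (5), and 3 to 5 in DiBASC2 against Di-2-ANEPEQ (5). The cause was not tested.

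Same-numbered libraries did not deviate together: 84 pairs correlated at −0.104 to 0.0696, none over 0.1, and 5 of 24 libraries correlated best with their own number. With the replicate number as a block, the counts against control were those reported, 9 in LPS, 8 and 9 with the nanotubes, 5 in DiBASC2, 1 in AAV and 0 in Fura-2 and Di-2-ANEPEQ, and 3 rather than 4 passed between the nanotube types.

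Counts over all genes were less stable. In Fura-2 33 genes were called, 0 without control replicate 1 and 188 with no low-count filter. In DiBASC2 717 were called, but 333 if control replicate 1 was left out. Of 404 called in Di-2-ANEPEQ, the same omission left 120, and there were 814 with only the 2 groups compared. In AAV 656 were called and 157 without control replicate 3. In DiBASC2 against Di-2-ANEPEQ 1174 were called, 610 without Di-2-ANEPEQ replicate 1. In DiBASC2 length and GC trends removed gave 1258, and in DiBASC2 against Di-2-ANEPEQ 1817. Tnfaip3, Zc3h12c and Zfp36 had calls in DiBASC2 that held in every such fit. Irak3 and Zc3h12a had the lowest counts of the set, and their standard errors were the widest.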
